A study of Homo sapiens with 12 samples.

Results

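The nuclear-encoded subunits of the respiratory chain were examined in HCT116 cells, an established human colorectal cancer cell line with functional p53. They were selected by gene symbol alone (the NDUF, SDH, UQCR, COX and ATP5 subunit families), with pseudogenes left out and at least 20 counts in at least 1 library. Of 80 genes with such symbols 77 passed, among 16123 tested and 60580 listed. The 3 others were close to absent. UQCRHL, a near copy of UQCRH, reached at most 7 counts, the muscle isoform COX7A1 1 count and ATP5MGL 2 counts. The 77 members comprised 36 genes of complex I, 4 of complex II, 8 of complex III, 11 of complex IV (with NDUFA4) and 18 of complex V (with the inhibitor ATP5IF1).

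RNA of 4 states was sequenced. Cells were WT or miR-34a/b/c-KO (termed KO in the following) and received DMSO as vehicle or 4 µM 5-FU for 48 h. 5-FU is a pyrimidine analog that disturbs nucleotide and RNA metabolism and activates p53. In the KO cells the sequences of the p53-induced microRNAs miR-34a, miR-34b and miR-34c had been deleted with CRISPR-Cas9. Single-cell derived clones were used in the study, and the sources do not say which clone or clones gave the sequenced RNA, so a genotype difference may include differences between clones. The design names 3 biological replicates per state. Replicate 1 of the WT cells under 5-FU held the same counts as replicate 3 of the WT cells under DMSO and was not used, which left 11 libraries, with replicates 2 and 3 for the WT cells under 5-FU.

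The libraries held 22831415 to 39064210 counts. The members took 0.913 to 1.01% of the counts in WT and 0.886 to 0.959% in KO cells under DMSO, and 0.857 to 0.888% in WT and 0.737 to 0.792% in KO cells under 5-FU. EPCAM (306 to 424 CPM, reads per 1e+06 counts), KRT8, KRT18, KRT19 and CDH1 were expressed as in epithelial cells, whereas the intestinal marker VIL1 reached 2.32 CPM at most. Of markers of other cell types, PTPRC, PECAM1 and COL1A2 had at most 9 counts, and COL1A1 had 20.7 to 74.0 CPM. CPM of these markers were taken over the library totals alone. For all genes that follow, CPM were also scaled by the upper-quartile factors given under the processing of the data. The rows of MIR34A, MIR34B and MIR34C were at 0 counts in all 11 libraries, so the deletion could not be checked on them. MIR34AHG, the host transcript of miR-34a, was at 4.46 to 5.36 CPM in WT and 21.9 to 22.5 CPM in KO cells treated with DMSO, which does not check the deleted part either. CDKN1A, the p53 target encoding p21, rose 12.4-fold in WT and 5.28-fold in KO cells with 5-FU (edgeR quasi-likelihood test, FDR 5.26e-17 and 1.35e-15). Its mean was higher in KO cells already under DMSO (469 against 167 CPM in WT cells). Under 5-FU it was 2480 CPM in KO and 2080 CPM in WT cells.

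The respiratory chain of the inner mitochondrial membrane passes electrons from NADH (complex I) and succinate (complex II) through complex III to oxygen at complex IV, and the proton gradient built on the way drives ATP synthesis by complex V. Most subunits are encoded in the nucleus, made in the cytoplasm and imported. A minority is encoded by mitochondrial DNA, none of which was listed in the files (0 of 13 genes). The promoters of the nuclear genes are known for sites of NRF1, of the ETS factor GABP and of YY1, which tie their transcription together.

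Sequences are shown first for 2 of the deleted microRNAs and for matches to the seed of miR-34a among the members, since the KO cells lack these microRNAs. The mature sequences (RefSeq, GRCh38.p14) are printed with the seed, bases 2 to 8, in capitals.
hsa-miR-34a-5p: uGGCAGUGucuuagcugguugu
hsa-miR-34b-5p: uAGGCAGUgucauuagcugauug
The match to the miR-34a seed in DNA letters, CACTGCC, was searched (and that to the shifted seed of miR-34b was not) on the sense strand of the 3' UTR of each canonical transcript (GENCODE release 44). It occurred in 6 of 77 members (7.79%), against 2321 of 13242 tested genes with a 3' UTR (17.5%). The members have short 3' UTRs, with a median of 193 bases against 1278 bases in tested genes. The 6 sites follow with 10 bases before and 5 bases after the match, which is in capitals.
SDHC: ctttgggtgcCACTGCCtgtgg
NDUFB5: tttaaaaattCACTGCCtgttt
UQCRQ: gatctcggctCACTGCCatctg
NDUFC2: aaatctggccCACTGCCaataa
NDUFA9: gtatgagaagCACTGCCataca
ATP5F1A: ggcctaaataCACTGCCcaagt
The matches in UQCRQ, NDUFC2 and NDUFA9 are followed by an a (an 8mer site), the other 3 are not. None of these 6 mRNAs passed the test as higher in KO than in WT cells (0 of 6 at FDR below 0.05 by edgeR). Over all tested genes 24.5% were higher under DMSO and 21.6% under 5-FU, and 6 genes are too few to be read against these shares. Their log2 fold changes were -0.91 to 0.00 under DMSO and -1.25 to -0.17 under 5-FU.

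Promoters are shown for 3 members that turn up repeatedly in the results, SDHD and ATP5MC2, whose mRNAs fell with 5-FU in both genotypes, and COX6A1, whose mRNA rose in WT cells only by the tests of each genotype. Each line holds the 250 bases before the annotated start (RefSeq, GRCh38.p14), read 5' to 3' on the strand of the gene, with matches to the NRF1 motif GCGCATGCG and the ETS motif CCGGAAG, on either strand, in capitals.
SDHD, chr11:112086623-112086872, plus strand: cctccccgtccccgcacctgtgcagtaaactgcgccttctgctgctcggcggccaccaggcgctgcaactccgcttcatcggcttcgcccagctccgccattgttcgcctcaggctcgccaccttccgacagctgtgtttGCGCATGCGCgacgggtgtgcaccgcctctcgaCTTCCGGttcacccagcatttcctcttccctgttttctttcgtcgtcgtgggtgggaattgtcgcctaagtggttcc
ATP5MC2, chr12:53676084-53676333, minus strand: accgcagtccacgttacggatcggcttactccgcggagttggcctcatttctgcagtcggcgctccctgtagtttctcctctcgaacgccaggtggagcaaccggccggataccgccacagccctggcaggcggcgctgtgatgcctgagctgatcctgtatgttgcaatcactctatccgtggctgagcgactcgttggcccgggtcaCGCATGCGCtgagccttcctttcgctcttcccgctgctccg
COX6A1, chr12:120437863-120438112, plus strand: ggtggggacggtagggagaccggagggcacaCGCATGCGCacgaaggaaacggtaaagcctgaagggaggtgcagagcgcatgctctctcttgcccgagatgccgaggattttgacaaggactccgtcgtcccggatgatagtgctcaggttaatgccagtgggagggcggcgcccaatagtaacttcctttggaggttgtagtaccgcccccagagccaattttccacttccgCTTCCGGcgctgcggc
All of the promoters printed hold the NRF1 motif, and most members do not. Those of SDHA, NDUFV3 and NDUFB10, which also recur in the results, hold neither the NRF1 nor the ETS motif. A promoter was listed for 64 of the 77 members. Over 300 bases (250 before to 50 after the start), the NRF1 motif was found in 10 of 64 (15.6%), against 3.59% of 11343 promoters of tested genes and 2.10% of all 27305. The ETS motif was found in 20 (31.2%, against 18.3% and 10.7%) and the YY1 motif AAGATGGCG in 8 (12.5%, against 3.77% and 1.85%). Of 31 members with at least 1 of these motifs 27 were lower with 5-FU in KO cells, and of 33 members without any of them 25.

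Levels differed widely between subunits. Per kilobase of the canonical transcript and over all libraries, ATP5F1B, the catalytic beta subunit of ATP synthase, stood first (540 CPM per kilobase), followed by COX4I1 (516), a regulatory subunit of complex IV, and by UQCRH (356), the hinge protein of complex III. In WT cells treated with DMSO ATP5F1B was at 629 ± 28.1 and COX4I1 at 549 ± 20.9 CPM per kilobase (SD, n = 3). At the low end were the complex I subunits NDUFA9 (6.40), NDUFV3 (9.89) and NDUFS1 (10.7 CPM per kilobase), all with long transcripts. The order depends on the length used. By the union of all annotated exons COX4I1 ranked 10 rather than 2.

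**Figure D1:**
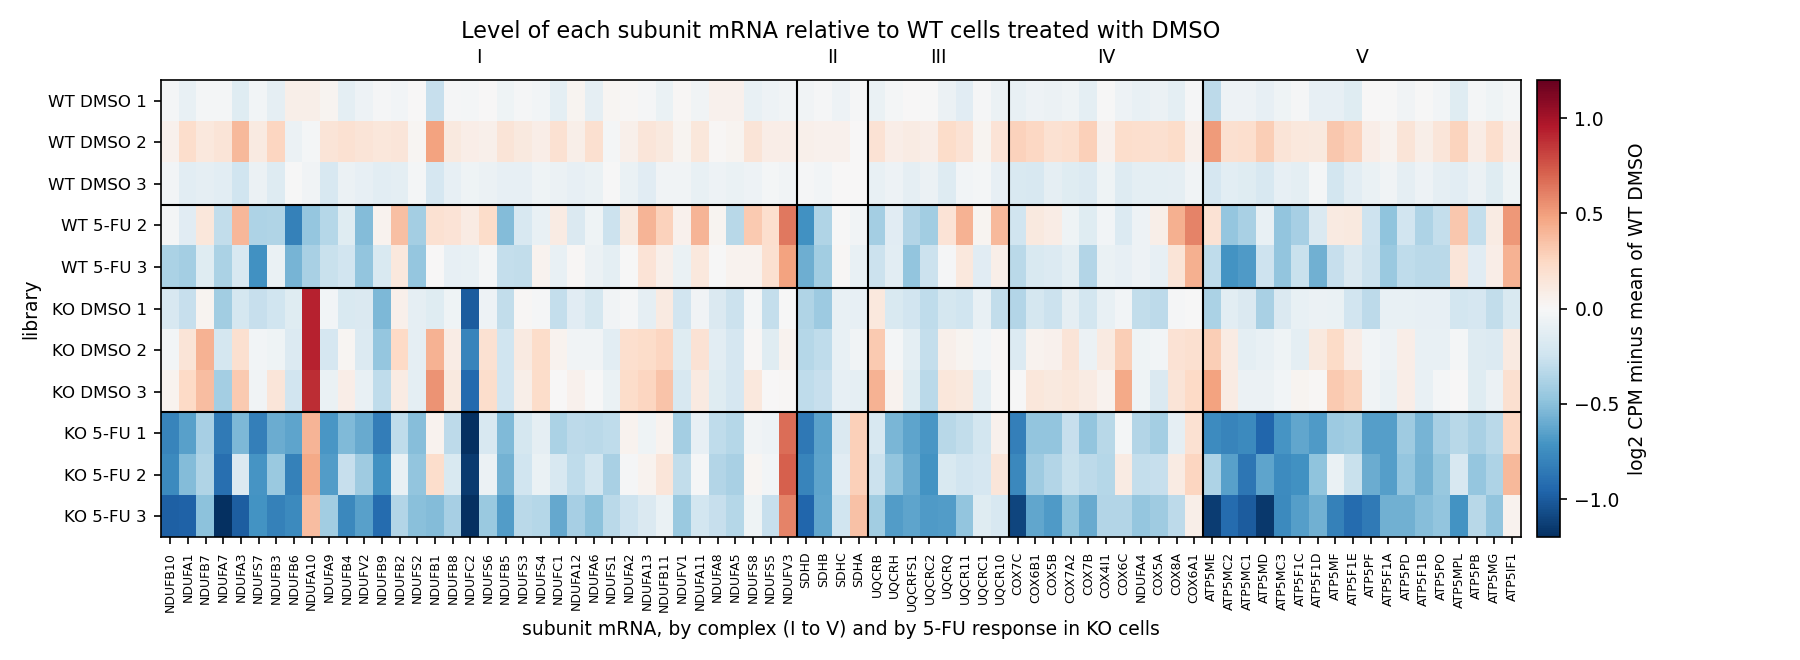
Level of each of the 77 subunit mRNAs (columns, grouped by complex and ordered by the 5-FU response in KO cells) in each of the 11 libraries (rows), as log2 CPM minus the mean of WT cells treated with DMSO. The 3 libraries of KO cells treated with 5-FU are mostly blue, with medians of -0.40, -0.34 and -0.50, NDUFA10 is red and NDUFC2 blue in all KO libraries, and the row of WT DMSO replicate 2 is reddish, with a median of 0.13.

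Replicate 2 of WT cells and replicate 1 of KO cells, both treated with DMSO, stood apart from their groups in these genes. The median log2 level of the members, relative to the mean of WT cells treated with DMSO, was 0.13 in replicate 2 of WT cells treated with DMSO, against -0.04 and -0.10 in replicates 1 and 3. The medians were -0.17, -0.03 and 0.02 in KO cells under DMSO, -0.06 and -0.13 in WT cells under 5-FU, and -0.40, -0.34 and -0.50 in KO cells treated with 5-FU. The last 3 lay below all other libraries. In RNA of whole cultures, fewer cells expressing a gene and less of its RNA per cell cannot be told apart.

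In WT cells, more subunit mRNAs were lower than higher with 5-FU, and 41 of 77 did not pass. The log2 fold change was below 0 for 52 of 77 members (67.5%), a share that was not counted over all tested genes. At FDR below 0.05, 27 of 77 members (35.1%) were lower, where 28.3% of all tested genes were, and 9 (11.7%) were higher, where 31.9% of all tested genes were. The median log2 fold change was -0.08, beside 0.03 over all tested genes. With a minimum fold change of 1.5, 3 members were lower (3.90%, background 9.38%) and 0 higher (background 18.5%). The 9 higher members became 3 when replicate 2 under 5-FU or replicate 3 under DMSO was left out, 4 without replicate 1 and 14 without replicate 2 under DMSO.

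In KO cells, the decrease covered most of the chain. At FDR below 0.05, 63 of 77 members (81.8%) were lower with 5-FU, where 33.8% of all tested genes were, and 2 (2.60%) were higher, where 26.6% were. The median log2 fold change was -0.38, beside -0.06 over all tested genes. Most changes were small. With a minimum fold change of 1.5, 14 members were lower (18.2%, background 12%) and 1 higher (background 13.3%). The libraries did not overlap, with all 5-FU libraries below all DMSO libraries, for 54 members (background 38.4%), and for 31 members in WT cells (background 32.3%). The subunit genes have short transcripts, with a median canonical length of 758 bases against 3156 bases over tested genes. With counts adjusted for canonical transcript length per library (a choice added after the data were seen), 41 members were lower in KO cells. The median was then -0.19 in KO cells. In WT cells it was -0.13 with this adjustment and -0.08 without it. With 1 RUVg factor, 0 members passed FDR in either genotype by edgeR, with 4 higher and 4 lower at an unadjusted p under 0.05 in WT and 3 higher and 11 lower in KO cells. This factor lay at -0.338 to -0.213 in all DMSO libraries and at 0.288 to 0.353 in all 5-FU libraries, so that it cannot be told apart from the treatment.

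**Figure D2:**
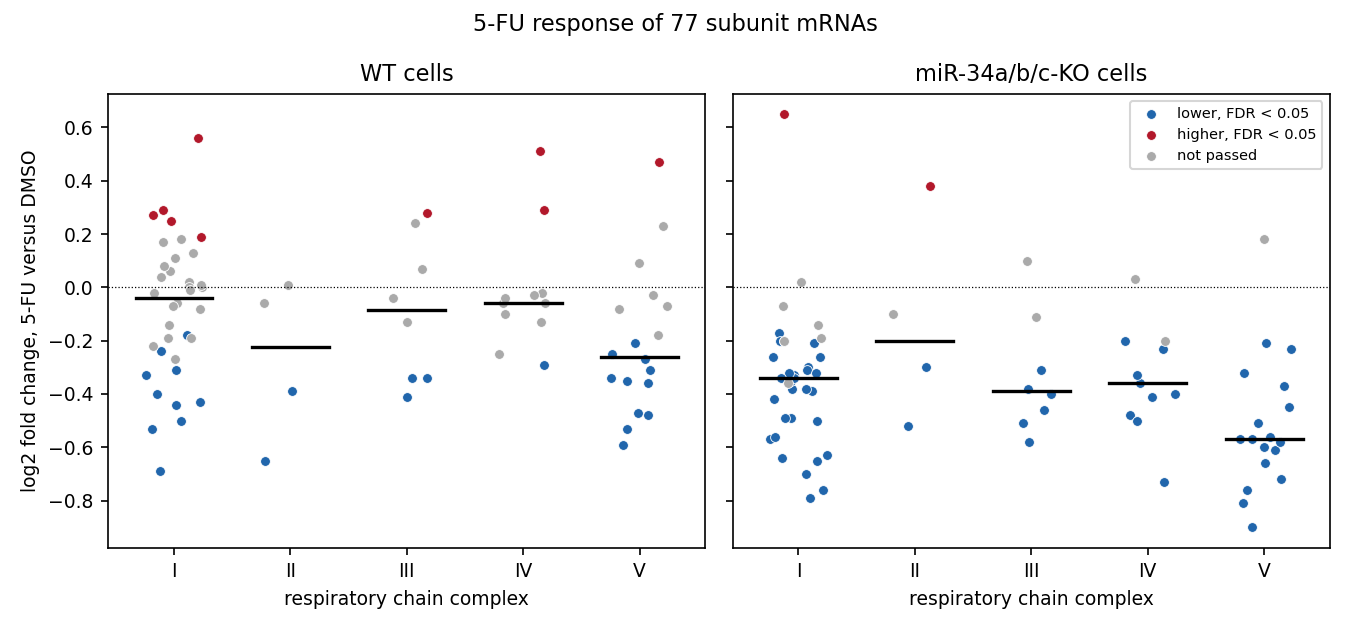
Log2 fold change of each subunit mRNA between 5-FU and DMSO in WT cells (left) and KO cells (right), by complex, with a bar at the median of each complex. Points are colored by direction at FDR below 0.05. In complex V, 17 of 18 points are blue in KO cells, where 33.8% of all tested genes were lower, and the median is -0.57.

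Complex V, the ATP synthase, held the lowest median in both genotypes. With 5-FU 11 of its 18 mRNAs were lower and 1 higher in WT cells (median log2 fold change -0.26), and 17 were lower and 0 higher in KO cells (median -0.57, with edgeR). Over all tested genes 28.3% were lower and 31.9% higher in WT cells, and 33.8% and 26.6% in KO cells. The same shares stand beside the counts of the other complexes and of their parts below, and several parts hold too few genes to be read against them. The c ring is the rotor through which protons pass, and its subunit c is encoded by 3 genes whose mature proteins are the same. ATP5MC1 was at 106, 127 and 99.8 CPM in WT cells treated with DMSO and at 84.0 and 69.1 CPM with 5-FU. In KO cells it went from 98.1, 102 and 105 CPM to 64.8, 60.4 and 55.1 CPM. ATP5MC2 was at 118, 141 and 113 CPM in WT cells treated with DMSO and at 89.6 and 75.2 CPM with 5-FU, and went from 113, 132 and 132 CPM to 71.3, 78.5 and 65.2 CPM in KO cells. The 5-FU libraries of both genes lay below all DMSO libraries in each genotype. ATP5MC3 went from 234, 271 and 227 to 175 and 175 CPM in WT cells and from 216, 235 and 238 to 149, 144 and 143 CPM in KO cells. The log2 fold changes of ATP5MC1, ATP5MC2 and ATP5MC3 were -0.53, -0.59 and -0.48 in WT cells (FDR 0.000197, 0.000115 and 1.92e-05 by edgeR). In KO cells they were -0.76, -0.81 and -0.66 (FDR 1.57e-06, 1.1e-06 and 1.5e-07 by edgeR), and none differed between the genotypes at FDR below 0.05 (interaction -0.23, -0.23 and -0.18, FDR 0.203, 0.229 and 0.168).

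The catalytic F1 head and its central stalk followed the same way, with 4 of 5 mRNAs lower in WT and 5 of 5 in KO cells. ATP5F1C, the gamma subunit that turns inside the head, was lower by 0.34 on the log2 scale (-0.34 ± 0.07, SE) in WT and by 0.61 (-0.61 ± 0.06) in KO cells. ATP5F1D, the delta subunit of the stalk, changed by -0.36 ± 0.10 and -0.60 ± 0.09. All 4 mRNAs of the peripheral stalk, which keeps the head from turning, were lower in both genotypes, with medians of -0.26 and -0.44.

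Of the 5 small accessory subunits of the membrane part 0 passed in WT cells (FDR below 0.05 with edgeR, median -0.07), and all 5 were lower in KO cells (median -0.58). The interaction passed for 2 of the 5, and the parts of complex V were not tested against each other. ATP5ME, subunit e, which takes part in dimer formation, was at 21.3, 37.7 and 23.0 CPM in WT cells treated with DMSO and at 29.9 and 21.4 CPM with 5-FU. In KO cells it was at 20.3, 32.4 and 37.0 CPM with DMSO and at 15.7, 20.5 and 12 CPM with 5-FU. The DMSO libraries of this mRNA spread about as widely as the difference between the treatments, and replicate 2 of the 5-FU libraries overlapped replicate 1 of the DMSO libraries. Its log2 fold change was -0.07 ± 0.25 in WT and -0.90 ± 0.24 in KO cells (FDR 0.815 and 0.00371 by edgeR), and the interaction did not pass (-0.82 ± 0.35, FDR 0.09). ATP5MD, a small subunit that stabilizes dimers, changed by -0.18 ± 0.14 in WT and -0.72 ± 0.13 in KO cells (interaction FDR 0.0467 by edgeR). ATP5MPL, the 6.8 kDa proteolipid, changed by 0.23 ± 0.13 (not passed) and -0.32 ± 0.13 (interaction FDR 0.0361 by edgeR). Its DMSO and 5-FU libraries overlapped in KO cells. ATP5MF, subunit f, changed by -0.08 ± 0.18 (not passed) and -0.58 ± 0.16, with overlapping libraries in KO cells. Its reads may be shared with the readthrough gene ATP5MF-PTCD1, which had 225 to 630 counts against 728 to 2214 of ATP5MF.

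ATP5IF1, which blocks ATP hydrolysis by the reversed enzyme, was the exception in complex V. It was at 81.0, 87.0 and 79.4 CPM in WT cells treated with DMSO and at 118 and 110 CPM with 5-FU, both above all controls. In KO cells it was at 72.5, 88.6 and 94.2 CPM with DMSO and at 97.6, 108 and 84.7 CPM with 5-FU, and these groups overlapped. The log2 fold change was 0.47 ± 0.10 in WT cells (FDR 0.000581 by edgeR) and 0.18 ± 0.09 in KO cells (FDR 0.0901). The difference between the genotypes did not pass (interaction -0.29 ± 0.13, FDR 0.121).

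**Figure D3:**
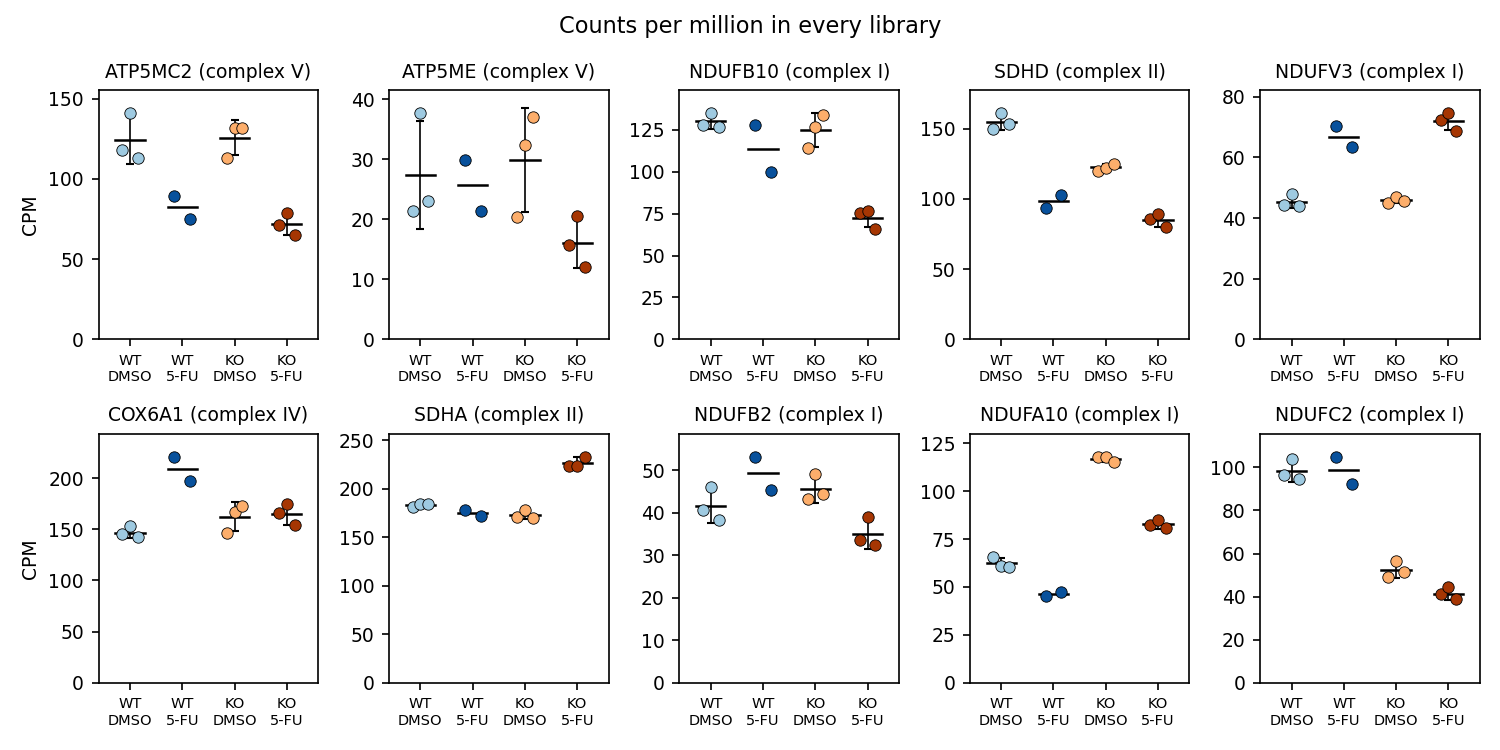
CPM of 10 members in every library (points), with the mean of each state (line) and the SD where a state has 3 libraries (error bar); each y axis starts at 0. SDHA lies at 223 to 233 CPM in KO cells treated with 5-FU and at 170 to 184 CPM in all other libraries, and NDUFC2 at 38.9 to 56.6 CPM in KO cells and 92.5 to 105 CPM in WT cells.

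Complex II, which also serves the TCA cycle, had members moving in opposite directions. SDHD, a membrane anchor, was at 150, 161 and 153 CPM in WT cells treated with DMSO and at 93.7 and 103 CPM with 5-FU, and went from 120, 122 and 125 CPM to 85.5, 89.5 and 79.9 CPM in KO cells. No 5-FU library reached a DMSO library, and the log2 fold changes were -0.65 ± 0.06 and -0.52 ± 0.05 (FDR 1.1e-07 and 3.89e-07 by edgeR). SDHB, the iron-sulfur subunit, changed by -0.39 ± 0.06 in WT and -0.30 ± 0.05 in KO cells. SDHC, the other anchor, passed in neither (0.01 ± 0.05 and -0.10 ± 0.05). SDHA, the flavoprotein with the succinate site, was at 181, 184 and 184 CPM in WT cells treated with DMSO, 178 and 172 CPM in WT cells under 5-FU, and 171, 178 and 170 CPM in KO cells under DMSO. In KO cells treated with 5-FU it was at 223, 223 and 233 CPM, above all other libraries. Its log2 fold change was 0.38 ± 0.04 in KO cells (FDR 1.62e-06 by edgeR) and -0.06 ± 0.05 in WT cells (FDR 0.29), and the genotypes differed (interaction 0.45 ± 0.07, FDR 0.000179). It was the only member of the 77 with an interaction above 0 at FDR below 0.05 (1.3%, background 10.1%). Reads of SDHA may be shared with its copies SDHAP1, SDHAP2 and SDHAP3, which had 227 to 422, 0 to 38 and 71 to 145 counts against 4103 to 6875 of SDHA.

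Complex I, which takes electrons from NADH and pumps protons, had 10 of 36 mRNAs lower and 5 higher in WT cells (median -0.04) and 29 lower and 1 higher in KO cells (median -0.34). Of the 7 core catalytic subunits, which hold the flavin and the iron-sulfur clusters, 5 were lower in WT and 6 in KO cells, with medians of -0.24 and -0.32. NDUFS7, next to the quinone site, was at 45.2, 49.9 and 44 CPM in WT cells treated with DMSO and at 35.8 and 28.0 CPM with 5-FU, and went from 38.1, 45.2 and 45.0 CPM to 26.3, 28.3 and 28.2 CPM in KO cells. Its log2 fold changes were -0.53 ± 0.10 and -0.63 ± 0.09 (FDR 0.000291 and 2.1e-05 by edgeR). None of the 7 core subunits differed in its 5-FU response between the genotypes at FDR below 0.05.

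The 20 accessory subunits of the membrane arm did not move as a group in WT cells, with 3 lower, 4 higher and 13 not passed (median 0.01). In KO cells 16 were lower and 0 higher (median -0.37), and 8 differed in their response between the genotypes. All 8 had an interaction below 0, as did 16% of all tested genes at FDR below 0.05. NDUFB10 was at 128, 135 and 127 CPM in WT cells treated with DMSO and at 128 and 99.7 CPM with 5-FU. In KO cells it went from 114, 127 and 134 CPM to 75.1, 76.3 and 66.0 CPM, with all 5-FU libraries below all others. The log2 fold changes were -0.19 ± 0.09 (FDR 0.0891) and -0.79 ± 0.08 (FDR 6e-07), and the interaction was -0.60 ± 0.12 (FDR 0.00226, all by edgeR). NDUFB7 changed by 0.00 ± 0.11 in WT (not passed) and -0.70 ± 0.10 in KO cells (interaction -0.70 ± 0.15, FDR 0.00234 by edgeR). NDUFB2 rose in WT cells (0.25 ± 0.10, FDR 0.0381) and fell in KO cells (-0.38 ± 0.09, FDR 0.00169, by edgeR), though its WT libraries overlapped, with 40.7, 46.0 and 38.2 CPM under DMSO and 53.2 and 45.3 CPM under 5-FU. NDUFB6 changed the other way around in size, by -0.69 ± 0.09 in WT and -0.56 ± 0.08 in KO cells (interaction 0.13 ± 0.12, not passed), and had the lowest value of all 77 members in WT cells. Further members lower by more than 1.5-fold in KO cells were NDUFA1 (-0.76 ± 0.14) and NDUFA3 (-0.64 ± 0.21), and their interactions did not pass. Of the 9 accessory subunits of the matrix arm 2 were lower and 1 higher in WT cells and 7 and 1 in KO cells, among them NDUFA7, lower in both (-0.33 ± 0.11 and -0.65 ± 0.11, interaction FDR 0.137 by edgeR).

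NDUFV3, an accessory subunit of the NADH-oxidizing module, was the only member to rise in both genotypes. It was at 44.2, 47.9 and 44.1 CPM in WT and 45.1, 46.8 and 45.7 CPM in KO cells treated with DMSO. With 5-FU it was at 70.2 and 63.5 CPM in WT and at 72.3, 74.6 and 68.7 CPM in KO cells, above all DMSO libraries. The log2 fold changes were 0.56 ± 0.06 and 0.65 ± 0.06 (FDR 1.43e-06 and 9.19e-08 by edgeR), and their difference was 0.09 ± 0.09 (FDR 0.502).

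Complex III, which hands electrons from ubiquinol to cytochrome c, had 3 of 8 mRNAs lower and 1 higher in WT cells (median -0.09) and 6 lower in KO cells (median -0.39). UQCRFS1, the Rieske iron-sulfur subunit, was at 101, 108 and 93.2 CPM in WT cells treated with DMSO and at 78.6 and 72.2 CPM with 5-FU, and changed by -0.41 ± 0.07 in WT and -0.46 ± 0.06 in KO cells. UQCRB, a ubiquinone-binding protein, changed by -0.34 ± 0.09 and -0.58 ± 0.08, and UQCRC2, a core protein, by -0.34 ± 0.06 and -0.40 ± 0.05. For these 3 the response did not differ between the genotypes by the test (interaction -0.05 ± 0.09, -0.24 ± 0.13 and -0.06 ± 0.08). UQCRH was at 213, 228 and 207 CPM in WT cells treated with DMSO and 196 and 198 CPM with 5-FU, and went from 190, 213 and 222 CPM to 148, 155 and 136 CPM in KO cells (interaction -0.37 ± 0.10, FDR 0.00914 by edgeR). UQCR11, the smallest subunit, was the second member to rise in WT (0.28 ± 0.11, FDR 0.0351) and fall in KO cells (-0.31 ± 0.10, FDR 0.0125), with overlapping libraries in each genotype. UQCR10, a small subunit and the highest of complex III in KO cells, passed in neither genotype (0.24 ± 0.12 and 0.10 ± 0.11). CYC1, the heme-bearing subunit that falls outside the symbol families used, changed by -0.30 ± 0.07 and -0.39 ± 0.06 with 5-FU.

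Complex IV, cytochrome c oxidase, had 1 of 11 mRNAs lower and 2 higher in WT cells (median -0.06) and 9 lower and 0 higher in KO cells (median -0.36). COX6A1, a subunit at the dimer interface in its liver-type form, was at 145, 153 and 142 CPM in WT cells treated with DMSO and at 221 and 197 CPM with 5-FU, above all controls. In KO cells it was at 146, 167 and 173 CPM with DMSO and at 166, 175 and 154 CPM with 5-FU, and the groups overlapped. The log2 fold changes were 0.51 ± 0.07 (FDR 1.85e-05) and 0.03 ± 0.07 (FDR 0.746), and the interaction was -0.48 ± 0.10 (FDR 0.00241, all by edgeR). COX7C was lower in both, by -0.29 ± 0.12 in WT (FDR 0.0474) and -0.73 ± 0.11 in KO cells (FDR 2.56e-05, by edgeR), with an interaction of -0.44 ± 0.16 (FDR 0.0559). COX7A2, the isoform used where COX7A1 is not expressed, changed by -0.10 ± 0.10 (not passed) and -0.41 ± 0.09, NDUFA4, which sits on complex IV, by -0.06 ± 0.09 (not passed) and -0.23 ± 0.08, and COX5A by -0.02 ± 0.09 (not passed) and -0.20 ± 0.08. The DMSO and 5-FU libraries of NDUFA4 and COX5A overlapped in KO cells.

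**Figure D4:**
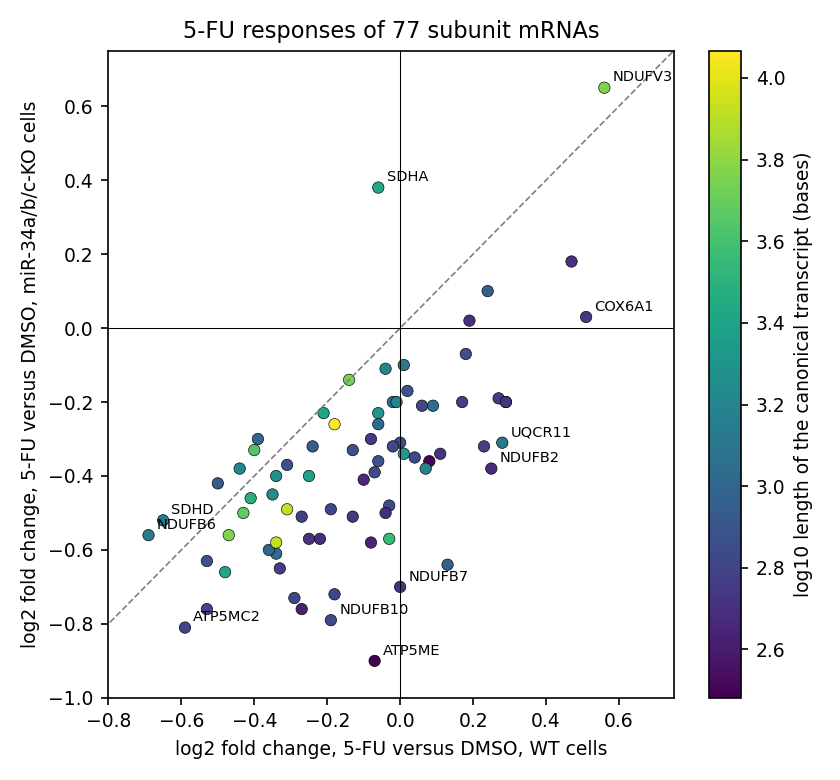
Log2 fold change with 5-FU in WT cells (x axis) against KO cells (y axis) for the 77 members, colored by the length of the canonical transcript; the dashed line marks equal responses. Of 77 points 69 have an interaction below 0. The median over all tested genes is below 0 as well (-0.09), and their share below 0 was not counted. SDHA and NDUFV3 lie highest, and the darkest points (shortest transcripts) lie mostly below the line.

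Set side by side, 27 members were lower with 5-FU in both genotypes, 34 were lower in KO cells and did not pass in WT cells, and 6 passed in neither. Over all tested genes 28.3% were lower in WT and 33.8% in KO cells. The combinations were not counted over all tested genes, so these numbers have no share to be read against. The 27 included all 3 c-ring genes, all 4 peripheral stalk genes and 5 of 7 core subunits of complex I. NDUFB2 and UQCR11 were higher in WT and lower in KO cells, and ATP5IF1, NDUFS5, COX8A, COX6A1, NDUFA11 and NDUFA13 were higher in WT and did not pass in KO cells. Since passing in one genotype and not in the other is no test of a difference, the interaction was tested. It was below 0, a lower response in KO than in WT cells, for 19 of 77 members at FDR below 0.05 (24.7%, background 16%) and above 0 for SDHA. The median interaction was -0.25, beside -0.09 over all tested genes. By complex, 9 of the 19 belonged to complex I, 2 to complex III, 5 to complex IV and 3 to complex V. With a minimum fold change of 1.5, 4 remained (5.19%, background 6.66%), which were NDUFB7, NDUFB2, NDUFB10 and UQCR11, and 0 were above 0 (background 3.42%).

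This count moved with single libraries and with transcript length. It was 9 to 12 without 1 of these libraries, namely KO 5-FU 1 and 3, KO DMSO 2 and 3, WT 5-FU 2, and WT DMSO 1 and 3. It was 32 without KO DMSO 1, 29 without WT 5-FU 3 and 36 without WT DMSO 2. Of the 77 members 59 were among the shortest 2874 of 14368 genes by canonical transcript (at most 1679 bases). Over those genes the median interaction was -0.21 in all and -0.31 in the members, whereas over the longest 2874 genes it was -0.01 in all and -0.09 in 5 members. Across the members, which share all libraries, Spearman's rho between length and interaction was 0.653, and 0.173 across 14368 genes with a length. After the adjustment for canonical transcript length, 4 members had an interaction below 0 and 5 above 0, with a median of -0.02. With the union of exons as length the numbers were 12 and 2, with a median of -0.16.

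**Figure D5:**
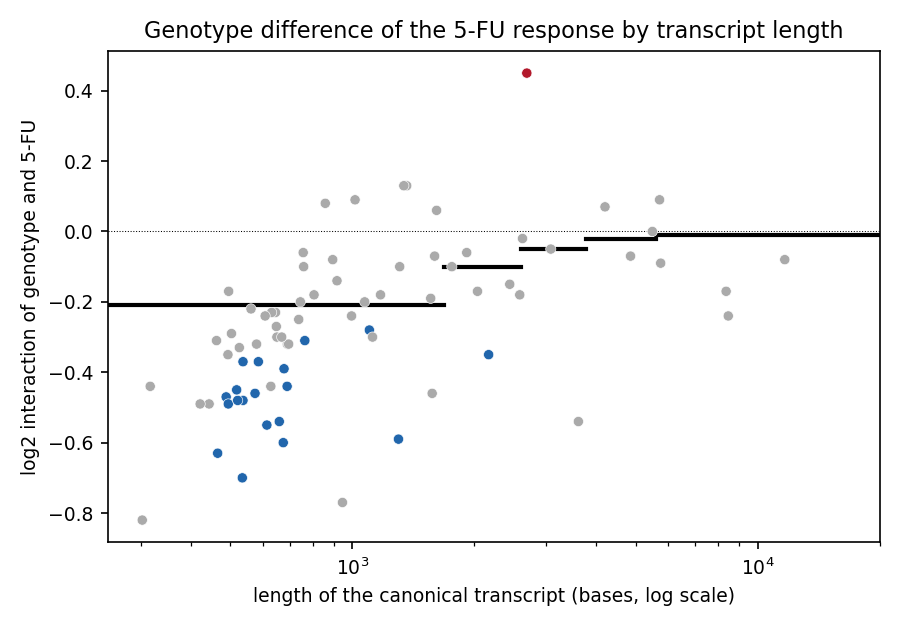
Interaction of genotype and 5-FU (log2, y axis) of each member against the length of its canonical transcript (bases, log scale), blue where below 0 and red where above 0 at FDR below 0.05, gray otherwise. Black bars give the median over all tested genes in each of 5 length classes, from -0.21 in the shortest to -0.01 in the longest.

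Between the genotypes, few members differed under DMSO. At FDR below 0.05, 13 members (16.9%) were lower and 4 (5.19%) higher in KO than in WT cells, where 21.9% and 24.5% of all tested genes were, and the median was -0.06, beside 0.03 over all tested genes. With a minimum fold change of 1.5, NDUFC2 was lower and NDUFA10 higher (1 each, background 4.97% and 9.1%). The 13 became 22 with DESeq2, 21 after the adjustment for canonical transcript length, 20 without a count minimum, 8 without replicate 1 of KO cells or of WT cells and 6 without replicate 2 of WT cells. The 4 became 7 without replicate 1 of KO cells, 2 without its replicate 2, and 1 without its replicate 3 or without replicate 1 or 3 of WT cells. COX6C had the highest value of complex IV, at 94.3, 114 and 88.4 CPM in WT and 95.8, 121 and 135 CPM in KO cells, which overlapped (0.25 ± 0.12, FDR 0.0967 by edgeR). Under 5-FU, 53 members (68.8%) were lower and 2 (2.60%) higher in KO cells, where 28% and 21.6% of all tested genes were, with a median of -0.29 beside -0.05. With a minimum fold change of 1.5, 10 were lower (13.0%, background 10.6%) and NDUFA10 was higher (1, background 7.58%). This comparison shares its KO libraries treated with 5-FU with the 5-FU response of KO cells. The 53 became 35 without replicate 2 of WT cells treated with 5-FU and 24 after the adjustment for canonical transcript length, with a median of -0.09.

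NDUFC2 and NDUFA10, both accessory subunits of complex I, stood out under both treatments. NDUFC2, of the membrane arm, was at 96.5, 104 and 94.5 CPM in WT and 49.2, 56.6 and 51.4 CPM in KO cells treated with DMSO. With 5-FU it was at 105 and 92.5 CPM in WT and 41.0, 44.4 and 38.9 CPM in KO cells, so that no KO library reached a WT library. The log2 fold changes were -0.91 ± 0.07 and -1.25 ± 0.08 (FDR 3.12e-08 and 2.67e-09 by edgeR). The gene lies on chromosome 11 (GRCh38, 78068297 to 78079862, minus strand), and the 40 tested genes around it had medians of 0.03 and 0.01. It carries the 8mer site of miR-34a printed above, at base 267 of a 3' UTR of 1690 bases. Readthrough transcripts listed as NDUFC2-KCTD14 had 1 to 78 counts, against 931 to 4060 of NDUFC2.

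NDUFA10, of the membrane arm as well, was at 65.4, 61.0 and 60.3 CPM in WT and 118, 118 and 115 CPM in KO cells treated with DMSO, and at 45.1 and 47.4 CPM in WT and 82.5, 85.0 and 80.5 CPM in KO cells treated with 5-FU. It was thus lower with 5-FU in both genotypes (-0.43 ± 0.06 and -0.50 ± 0.05) and higher in KO cells under both treatments (0.91 ± 0.05 and 0.84 ± 0.06, FDR 5.53e-10 and 9.26e-09 by edgeR). The gene lies on chromosome 2 (239892450 to 240025743, minus strand). Its 40 neighbors had medians of 1.01 and 1.04, and 40 and 39 of them were higher in KO cells, so the difference was shared by the region. NDUFB9, on chromosome 8, was at 201, 222 and 186 CPM in WT and 139, 147 and 164 CPM in KO cells treated with DMSO (-0.44 ± 0.08, and -0.75 ± 0.08 under 5-FU), and its 40 neighbors had medians of -0.73 and -0.70. CYC1, also on chromosome 8 (144095039 to 144097525, plus strand), was lower in KO cells as well. It was at 344, 364 and 336 CPM in WT and 199, 220 and 210 CPM in KO cells treated with DMSO (-0.73 ± 0.06, FDR 9.88e-08 by edgeR). The genes around CYC1 were not examined.

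Other genes of the pathway were counted from fixed lists. Of 16 assembly factors of complex I 8 were lower and 2 higher with 5-FU in WT cells, and 10 and 1 in KO cells. Over all tested genes 28.3% were lower and 31.9% higher in WT cells, and 33.8% and 26.6% in KO cells, and several of the lists that follow hold too few genes to be read against these shares. Of 24 assembly factors of complex IV 13 were lower and 5 higher in WT cells, and 14 and 2 in KO cells. NDUFAF8, a complex I assembly factor, rose by 1.25 ± 0.11 in WT and 0.77 ± 0.10 in KO cells, and NUBPL, which delivers iron-sulfur clusters, changed by -0.93 ± 0.11 and -0.97 ± 0.11. SCO2, a p53-regulated copper chaperone of complex IV, was at 19.6, 21.8 and 21.3 CPM in WT cells treated with DMSO and 18.7 and 14.3 CPM with 5-FU, and changed by -0.34 ± 0.10 in WT and -0.47 ± 0.09 in KO cells. Of 4 assembly factors of complex II 2 were lower in each genotype, of 6 of complex III 2 were lower in WT and 3 lower and 1 higher in KO cells, and of 3 of the ATP synthase 2 were lower in WT and 1 in KO cells.

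Of 18 regulators of mitochondrial biogenesis 9 were lower and 3 higher in WT cells, and 9 and 4 in KO cells. TFAM, which packs and transcribes mitochondrial DNA, was at 95.0, 100 and 94.7 CPM in WT cells treated with DMSO and at 51.5 and 64.0 CPM with 5-FU. In KO cells it was at 70.6, 71.3 and 66.3 CPM with DMSO and at 66.3, 66.4 and 69.3 CPM with 5-FU, and these groups overlapped. Its interaction was 0.70 ± 0.10 (FDR 0.00012 by edgeR), opposite in sign to that of most members. ESRRA, a nuclear receptor of mitochondrial genes, rose in both genotypes (0.51 ± 0.07 and 0.55 ± 0.07) and was the highest regulator that passed. Among the regulators that passed, GABPB2 was lowest in WT cells (-0.78) and MTERF3 in KO cells (-0.5). The mobile carrier CYCS, cytochrome c, changed by -0.54 ± 0.08 and -0.18 ± 0.07 (interaction 0.36 ± 0.10, FDR 0.0144 by edgeR). Of 7 further subunits and carriers outside the symbol families, CYC1 and CYCS among them, 4 were lower in each genotype and 1 higher in WT cells. NDUFAB1, the acyl carrier protein of complex I, changed by -0.27 ± 0.08 and -0.52 ± 0.07, and COX7A2L, which joins complexes III and IV, by -0.34 ± 0.06 and -0.47 ± 0.05.

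For 4 other lists the same counts are given beside those of the respiratory chain, without a test between lists. Of 18 TCA cycle genes 13 were lower and 2 higher in WT and 11 and 3 in KO cells (medians -0.25 and -0.34), and of 17 glycolysis genes 9 and 3 in WT and 12 and 3 in KO cells (medians -0.15 and -0.35). Of 78 genes of the mitochondrial ribosome 36 were lower and 4 higher in WT and 50 and 5 in KO cells (medians -0.17 and -0.25). Of 81 mRNAs of the cytoplasmic ribosome 29 were lower and 3 higher in WT and 76 and 1 in KO cells (medians -0.11 and -0.43). The interaction was below 0 for 4 and above 0 for 4 of the TCA cycle genes, for 5 and 0 of the glycolysis genes, for 12 and 1 of the mitochondrial and for 44 and 1 of the cytoplasmic ribosome, where 16% and 10.1% of all tested genes were. In all 4 lists more genes were thus lower than higher with 5-FU in KO cells, as over all tested genes (33.8% lower and 26.6% higher). In WT cells 28.3% of all tested genes were lower and 31.9% higher.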

How the data were processed

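RNA-Seq of 12 deposited libraries of HCT116 cells was used, and 1 library with counts identical to another was left out. The authors used CLC Genomics Workbench and the GRCh38 genome and deposited whole-number counts per gene symbol, without normalization. The number of reads in a count limits the precision of weakly expressed subunits. After a minimum of 20 counts in any library, upper-quartile factors (0.955 to 1.05) were applied and edgeR 4.0.16 was run with quasi-likelihood tests (R 4.3.3; 2-sided, 1 mean per state, Benjamini-Hochberg adjustment over 16123 genes). SE denotes the standard error of a log2 fold change. P-values measure the spread between these cultures. The script was tested on simulated data.

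The members and lists were chosen with earlier results of these data known. Described individually were members past FDR 0.05 and a 1.5-fold change in any comparison, the highest and lowest of each complex with 5-FU in each genotype and between genotypes under DMSO, and the SDH, subunit c, UQCRH, COX7A, ATP5IF1 and NDUFA4 genes. Of other lists, only some of the extremes are given (NDUFAF8, NUBPL, ESRRA, GABPB2 and MTERF3). CYC1, CYCS, NDUFAB1, COX7A2L, TFAM and SCO2 were fixed choices. PPARGC1A was under the count minimum. Gene positions and lengths came from GENCODE release 44, where 37636 of 60580 symbols matched. Whether counting used strand is not given in the sources used here. Alternatives comprised TMM factors, library totals, DESeq2 1.42.0, other filters, RUVg, length adjustment, a replicate block and leaving out single libraries.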

Additional observations from a re-analysis of the deposited data

Results flagged for a closer look

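The response to 5-FU differed between the genotypes, by the interaction term of edgeR at FDR below 0.05, for 11 of the members described individually. SDHA was the one with a value above 0 (0.45 ± 0.07, SE). Values below 0 were found for NDUFB7 (-0.70 ± 0.15), NDUFB2 (-0.63 ± 0.13), NDUFB10 (-0.60 ± 0.12) and NDUFC2 (-0.35 ± 0.10) of complex I. Complex III contributed UQCR11 (-0.59 ± 0.15) and UQCRH (-0.37 ± 0.10). Complex IV contributed COX6A1 (-0.48 ± 0.10), and complex V ATP5MPL (-0.55 ± 0.18), ATP5MD (-0.54 ± 0.19) and ATP5F1C (-0.28 ± 0.09). That of ATP5F1C did not pass with a replicate block (FDR 0.0561 by edgeR). Which of the 11 hold under the other alternatives is not listed here. Over all 77 members, the number below 0 was 9 to 36 when single libraries were left out. The median interaction of the members went from -0.25 to -0.02 with the adjustment for canonical transcript length. WT cells treated with 5-FU entered these tests with 2 libraries. The transcript lengths and single libraries that move with this result are given in the report, and their part in it was not tested.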

How the results depend on the processing

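Values are numbers of members lower and higher at FDR below 0.05, or the median log2 fold change of the 77 members. DESeq2 gave 55 lower for 5-FU in KO cells, 14 with an interaction below 0 and 22 lower in KO cells under DMSO, and TMM factors gave 58, 14 and 17. Without a count minimum 33 members had an interaction below 0 and 20 were lower in KO cells under DMSO. With the RUVg factor 0 members were higher and 0 lower with 5-FU in WT cells (median -1.25) and 0 and 0 in KO cells (median -1.29), 1 was higher and 4 lower in KO cells under DMSO (median -0.22), and 1 had an interaction below 0 (median -0.14). With the identical library kept as labelled, 0 were higher and 0 lower with 5-FU in WT cells by edgeR (2 and 22 at an unadjusted p under 0.05), 1 higher and 4 lower in KO cells under DMSO, and 2 had an interaction below 0. That library raised the spread of WT cells treated with 5-FU by construction. With a minimum fold change of 1.5 the numbers higher and lower were 0 and 3 for 5-FU in WT cells, 1 and 14 in KO cells, 1 and 1 for genotype under DMSO, 1 and 10 under 5-FU, and 0 and 4 for the interaction.

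Adjusted for the union of exons, 6 were higher with 5-FU in KO cells, 33 lower in KO cells under 5-FU (median -0.17), and the interaction was above 0 for 2 and below 0 for 12. Adjusted for the canonical transcript, 8 were higher and 41 lower with 5-FU in KO cells (median -0.19), 6 higher and 24 lower in KO cells under 5-FU (median -0.09), 21 lower in KO cells under DMSO, and the interaction was above 0 for 5 and below 0 for 4 (median -0.02). The replicate block on the numbers of the titles gave 8 higher and 31 lower in WT cells, 2 and 66 in KO cells and 21 with an interaction below 0. Together with the length adjustment, the replicate block gave 6 higher in KO cells with 5-FU, 33 lower in KO cells under 5-FU (median -0.14), and an interaction above 0 for 3 and below 0 for 12 (median -0.15). Of 15 same-numbered pairs 3 correlated above 0.1 (-0.164 to 0.188). The file headers number the libraries titled 2 and 3 of WT cells treated with 5-FU as 1 and 2, and by these numbers 1 of 15 pairs did (-0.274 to 0.109), so neither set of numbers was taken to pair the samples. The block on titles changed 1 call of a member described individually (ATP5F1C, interaction FDR 0.0561). The replicate block on header numbers, added after the data were seen, gave 5 higher in WT cells, with NDUFB2 and UQCR11 no longer passing (FDR 0.0783 and 0.0574 by edgeR), 14 with an interaction below 0, and the interaction of ATP5F1C (FDR 0.0719 by edgeR) and the genotype difference of COX7A2 under 5-FU (FDR 0.062 by edgeR) no longer passed.

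Leaving out single libraries gave 3 to 14 higher with 5-FU in WT cells, 1 to 7 higher and 6 to 16 lower in KO cells under DMSO, 35 to 57 lower in KO cells under 5-FU, and an interaction above 0 for 1 to 2 and below 0 for 9 to 36. It gave 23 to 28 lower with 5-FU in WT and 51 to 67 in KO cells. Among 103 calls of single members, 76 were kept and 26 lost after the adjustment for canonical transcript length. With the identical library kept as labelled, 60 were kept and 43 lost. With the RUVg factor 32 were kept, 52 were lost, and the direction turned in 19. These were, with 5-FU in WT cells, ATP5F1C (2.15), ATP5IF1 (-2.18), ATP5MC3 (0.31), COX6A1 (-1.76), NDUFB2 (-1.96), NDUFB6 (1.28), NDUFV3 (-0.66), UQCR11 (-2.86), UQCRB (0.71) and UQCRC2 (1.63). In KO cells they were ATP5F1C (1.58), ATP5MC3 (0.04), NDUFB6 (1.19), NDUFV3 (-0.43), SDHD (0.03), UQCRB (0.35) and UQCRC2 (1.35), and between genotypes under DMSO NDUFB7 (-0.19) and UQCRC2 (0.01). The direction of COX5A turned with 5-FU in KO cells under both adjustments by the union of exons (0.00), and that of COX7A2 between genotypes under 5-FU under that by the canonical transcript (0.07). The cause of these changes was not tested. The depth limits the subunits of fewest counts most, such as NDUFB1, NDUFA3 and ATP5ME.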
